A study of Mus musculus with 36 samples.

Results

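The respiratory chain genes encoded in the nucleus were followed in mouse knee cartilage after destabilization of the medial meniscus (DMM), an operation on the right knee that models post-traumatic osteoarthritis. Members were the protein-coding RefSeq genes whose symbol begins with Nduf, Uqcr, Cox4i, Cox5, Cox6, Cox7, Cox8 or Atp5, together with Sdha, Sdhb, Sdhc, Sdhd, Cyc1 and Cycs, and each gene was read from its transcript with the highest mean count. This gave 95 of 20289 coding genes: 38 under the symbols of complex I, 8 complex I assembly factors, 4 of complex II, 9 of complex III, cytochrome c itself, 18 of complex IV and 17 of complex V. Of the complex IV genes, 3 are isoforms of striated muscle (Cox6a2, Cox7a1 and Cox8b) and were kept apart. All mice were male C57BL/6J, 12 weeks old at surgery, and none of the groups carried an added allele or drug. The control tissue was the unoperated left knee of operated mice, so no unoperated animal enters any group, and the cartilage of 3 knees was pooled for each library. RNA was sequenced from 3 control and 3 DMM libraries at 4 weeks and at 12 weeks after surgery, and CpG methylation was read in other mice with the same layout.

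The respiratory chain moves electrons from NADH through complex I and from succinate through complex II to ubiquinone, then through complex III and cytochrome c to complex IV, which reduces oxygen. Complexes I, III and IV pump protons, and complex V uses the resulting gradient to make ATP. A few core subunits are encoded by the mitochondrial genome and all others by the nucleus. Articular chondrocytes live at low oxygen and are known to draw most of their ATP from glycolysis, whereas skeletal muscle, which lies next to the joint, is rich in mitochondria.

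To show how far the members share sequence, the 250 bases before the transcription start were read for the 75 members whose counted transcript has an entry in the RefSeq promoter table (build GRCm38.p6). On both strands, 5 motifs were searched. The nuclear respiratory factor 1 core GCGCATGC was in 10 of the 75 promoters (13.3%), against 3.15% of 17223 promoters of all genes. The ETS motif CCGGAAG, bound by GABP, was in 13 (17.3%), against 9.45% of all promoters. The oestrogen-related receptor motif TCAAGGTCA was in 1 member (Atp5g3), or 1.33% against 0.308%, and the YY1 motif AAGATGGCG in none of the 75, against 0.778% of all promoters. The muscle E-box CAGCTG was in 6 members (8%), against 12.1% of all promoters. Any of the NRF1, ETS, YY1 and oestrogen-related receptor motifs was in 22 of the 75 members (29.3%), against 13% of all promoters, so most members held none. None of these matches overlapped a match of another motif in the members. The promoters below are those of the called members that have an entry (Uqcrc1 at chr9:108936398-108936647 (plus strand), Atp5d at chr10:80142065-80142314 (plus strand) and Ndufaf4 at chr4:24897833-24898082 (plus strand)), of Cox6a1, which with Atp5l is 1 of only 2 members that held both the NRF1 and the ETS motif (Cox6a1 at chr5:115348959-115349208 (minus strand)), and of Cox8a and its muscle counterpart (Cox8a at chr19:7217617-7217866 (minus strand) and Cox8b at chr7:140900447-140900696 (minus strand)). All are written 5′ to 3′ and end at the base before the start, and capitals mark matches to the 5 motifs.
Uqcrc1: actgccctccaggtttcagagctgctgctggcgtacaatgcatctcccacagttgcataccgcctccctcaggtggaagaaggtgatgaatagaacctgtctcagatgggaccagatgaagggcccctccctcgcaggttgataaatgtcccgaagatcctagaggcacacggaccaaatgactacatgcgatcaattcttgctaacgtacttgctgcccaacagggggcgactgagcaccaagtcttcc
Atp5d: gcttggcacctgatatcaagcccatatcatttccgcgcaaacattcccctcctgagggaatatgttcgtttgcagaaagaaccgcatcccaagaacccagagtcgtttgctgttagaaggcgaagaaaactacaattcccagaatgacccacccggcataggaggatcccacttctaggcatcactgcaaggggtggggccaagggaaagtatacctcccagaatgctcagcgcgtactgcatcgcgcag
Ndufaf4: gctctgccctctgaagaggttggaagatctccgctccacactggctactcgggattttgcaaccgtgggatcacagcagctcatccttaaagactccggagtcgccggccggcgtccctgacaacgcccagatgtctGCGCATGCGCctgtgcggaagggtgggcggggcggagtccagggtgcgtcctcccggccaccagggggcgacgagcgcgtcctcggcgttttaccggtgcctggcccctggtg
Cox6a1: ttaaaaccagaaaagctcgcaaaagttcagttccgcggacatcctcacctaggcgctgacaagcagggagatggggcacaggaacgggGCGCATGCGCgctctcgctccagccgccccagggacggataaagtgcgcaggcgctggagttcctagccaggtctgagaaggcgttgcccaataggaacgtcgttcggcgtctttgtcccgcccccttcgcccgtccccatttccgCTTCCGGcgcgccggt
Cox8a: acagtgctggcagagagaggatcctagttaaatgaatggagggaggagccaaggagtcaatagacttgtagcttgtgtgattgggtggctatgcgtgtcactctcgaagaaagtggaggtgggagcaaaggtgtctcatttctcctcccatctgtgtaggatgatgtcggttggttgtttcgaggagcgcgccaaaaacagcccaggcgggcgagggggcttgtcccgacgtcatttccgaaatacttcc
Cox8b: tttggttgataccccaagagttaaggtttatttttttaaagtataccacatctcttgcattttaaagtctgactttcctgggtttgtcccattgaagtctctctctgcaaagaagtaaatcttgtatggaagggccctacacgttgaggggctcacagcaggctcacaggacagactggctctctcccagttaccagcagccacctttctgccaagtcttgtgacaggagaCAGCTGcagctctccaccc
Ndufaf4 and Cox6a1 each held the NRF1 core in 2 overlapping frames, and Cox6a1 also held an ETS motif close to the start. Cox8b held the E-box and only 1 CpG, against 11 CpGs in Cox8a and 26 in Cox6a1. Uqcrc1, Atp5d and Cox8a held none of the 5 motifs in this window. A match describes letters and was not tested as a binding site.

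Library totals ran from 27706547 to 62737656 counts. Values are in CPM, read counts relative to the TMM-scaled size of each library, and comparisons between genes are in TPM, which also divides by transcript length. All 20 chondrocyte markers were detected, from Prg4 at 5131 to 16804 CPM, Col2a1 at 356 to 1624 CPM and Acan at 192 to 875 CPM down to Matn3 at 0.182 to 25.6 CPM and Matn1 at 0.272 to 1.32 CPM. Of 5 brown fat markers, Ucp1 had at most 2 counts, whereas Dio2 reached 9.24 CPM, Ppara 2.41 CPM, Cidea 1.34 CPM and Elovl3 0.522 CPM. Marrow and blood transcripts were present too. Over the libraries, 10 neutrophil and marrow markers summed to 9097 to 43627 CPM and 20 chondrocyte markers to 16169 to 56130 CPM. The 8 erythroid markers summed to 7242 to 21279 CPM, with Hba-a1 and Hba-a2, whose ranges were the same in every group, both counted. Skeletal muscle transcripts were present in all libraries and varied widely. The summed level of 30 muscle markers was 32742, 9996 and 8452 CPM in control replicates 1, 2 and 3 at 4 weeks and 5089, 2483 and 910 CPM in the DMM replicates. At 12 weeks it was 195, 2778 and 21109 CPM in control and 17128, 999 and 1319 CPM in DMM replicates. Control replicate 1 of 4 weeks also stood apart for the members themselves. Without the muscle isoforms they summed to 11674 CPM in that library and to between 7028 and 9096 CPM in the other 11. In bulk RNA, fewer cells of a kind and less RNA per cell cannot be told apart. The p-values measure the spread between these pools, and which control and DMM pools came from the same mice is not stated.

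In the RNA of this mixed tissue the chain was strongly expressed, and the part of each cell type in the levels was not tested. Of 92 members without the muscle isoforms, 86 lay above the median TPM of genes with a count and 70 in the top 10%. In complex I, which oxidizes NADH, the median subunit was at 214 TPM, and the highest were Ndufa4 (664 TPM) and Ndufa3 (628 TPM). Ndufa4 carries a complex I symbol but is now counted as a subunit of complex IV. The assembly factors, which build complex I and do not stay in it, were lower, with a median of 30.9 TPM and Ndufaf8 (92.7 TPM) and Ndufaf3 (42.0 TPM) at the top. Complex II, succinate dehydrogenase, had levels close to each other: the iron-sulfur subunit Sdhb at 388 TPM, the membrane anchor Sdhd at 317 TPM, the flavoprotein Sdha at 311 TPM and the second anchor Sdhc at 166 TPM. In complex III the median was 219 TPM, and Uqcr10 (484 TPM) and the core protein Uqcrc1 (410 TPM) were highest. Complex IV was led by Cox6b1 (820 TPM) and Cox4i1 (760 TPM) and complex V by the 2 main subunits of the catalytic head, Atp5b (1294 TPM) and Atp5a1 (613 TPM). The testis isoforms Cox7b2 and Cox8c had at most 3 and 1 counts and were not tested, which left 93 members tested in every comparison.

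**Figure D1:**
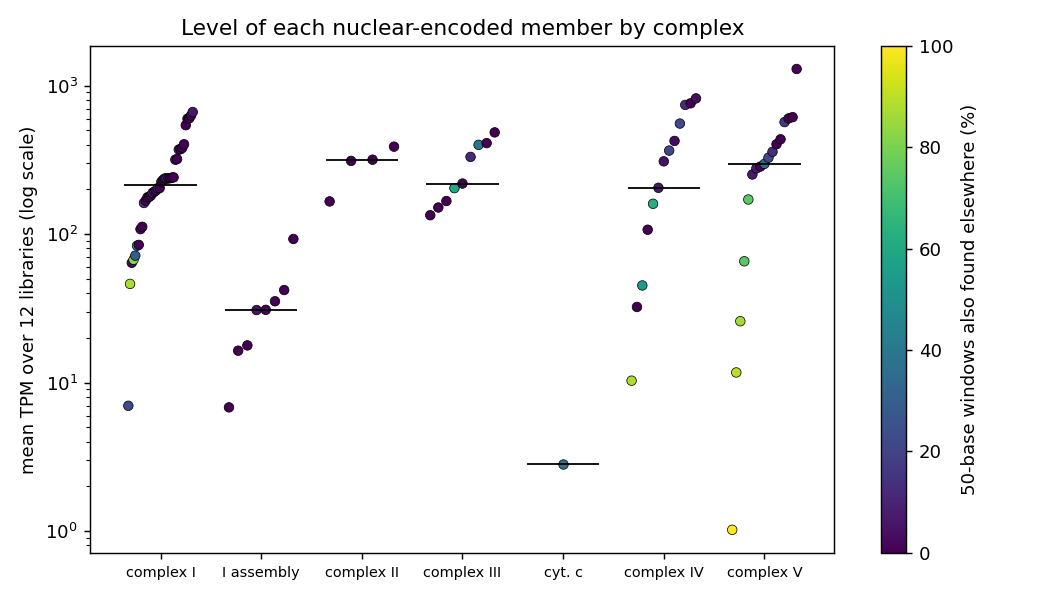
Mean TPM over the 12 libraries (log scale) of each member by complex, without the muscle isoforms and the testis isoforms Cox7b2 and Cox8c. Each point is a gene, horizontal lines are medians, and the colour gives the share of 50-base windows of the transcript that occur elsewhere in the genome. The lowest point of complex V, Atp5g2, has 100% of such windows.

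Several low values concerned genes with close copies. Reads were 50 bases long, and 11 members had at least 50% of their 50-base windows also present elsewhere, such as in processed pseudogenes. Their median was 46.2 TPM, against 237 TPM in the 64 members with under 10% of such windows. Atp5g2, a c-ring subunit of ATP synthase, had all windows shared and stood at 1.02 TPM, Atp5l had 89.4% shared and 11.7 TPM, and the complex IV subunit Cox7c had 87.8% shared and 10.3 TPM. Cycs, cytochrome c, had 38.1% shared and 2.85 TPM. It was the lowest of the 17 members with 10% to under 50% shared, whose median was 297 TPM. A level under 10 CPM was found in 6 of the 64 members with under 10% shared, 2 of these 17 and 6 of the 11. How reads with several locations were counted is not given in the sources used here, so the levels of members with many shared windows are uncertain. The exons of 11 members overlap a gene on the other strand, among them Cox6a2 (Itgad), Ndufa4l2 (Shmt2) and Atp5a1 (Haus1), and reads of the pair cannot be told apart without strand.

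At 4 weeks after DMM no member passed an adjusted p under 0.05 in edgeR's quasi-likelihood test, in which 0.0757% of all 21140 transcripts tested were called. DESeq2 called 3 members, all of them the muscle isoforms, where it called 3.44% of all transcripts. Without the muscle isoforms, DMM was lower in 52 of 90 members and higher in 38, and the median log2 fold change was -0.09 against -0.02 over all genes. The median was -0.13 in complex I (25 of 38 lower), -0.17 in complex II (3 of 4 lower), -0.23 in complex III (6 of 9 lower), 0.10 in complex IV (9 of 13 higher), -0.09 in complex V (10 of 17 lower) and 0.09 in the assembly factors (5 of 8 higher). In 10 of the 90 members every DMM library lay below every control library, and in none did every one lie above. The same was true of 10.3% of all genes for lower and of 10.8% for higher.

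Among these members were Cyc1, Uqcrc1 and Uqcrfs1 of complex III, Ndufv1 and Ndufs7 of complex I, Sdhc of complex II, Cox5a of complex IV, and Atp5a1 and Atp5d of complex V. Of these, Cyc1 is cytochrome c1, Uqcrfs1 the Rieske iron-sulfur protein, Ndufv1 the flavin-binding NADH site, Ndufs7 an iron-sulfur subunit and Atp5a1 the alpha subunit. Whether catalytic or core subunits were more frequent here than among all 90 members was not tested. Uqcrfs1, Ndufv1, Ndufs7 and Cox5a are named because of these values. Cyc1 was at 180, 104 and 127 CPM in control and 90.6, 82.6 and 55.6 CPM in DMM replicates, a log2 fold change of -0.85 (SE 0.28, adjusted p = 0.303 in edgeR). Uqcrc1 was at 382, 223 and 210 CPM in control and 183, 158 and 131 CPM in DMM, a log2 fold change of -0.79 (SE 0.28, adjusted p = 0.323). In both genes the DMM libraries lay below all controls, and control replicate 1 was the highest. Uqcrfs1 was at 145, 73.0 and 86.1 CPM in control against 62.7, 65.1 and 55.8 CPM in DMM (log2 fold change -0.73, SE 0.27, adjusted p = 0.331). Sdhc was at 118, 63.3 and 66.8 CPM in control against 61.4, 61.6 and 58.3 CPM in DMM (log2 fold change -0.45, SE 0.26, adjusted p = 0.423), so that only control replicate 1 stood well above the DMM libraries. Before adjustment 7 of the 90 members had a p under 0.05, all lower in DMM (Cyc1, Uqcrc1, Uqcrfs1, Ndufv1, Ndufs7, Atp5d and Atp5g1), a share close to the 7.44% of all genes that were lower at that p. Atp5g1 had the lowest log2 fold change of them, -1.01 (SE 0.42), with 86.1% of its windows shared. Without control replicate 1 the median of the members was 0.15, and the log2 fold changes of the 7 were closer to 0, from -0.60 for Cyc1 and -0.46 for Uqcrc1 through -0.39 for Atp5g1 and -0.38 for Uqcrfs1 to -0.27 for Ndufs7. Those of Cox5a and Sdhc were -0.27 and -0.11. With a covariate for skeletal muscle content, which did not overlap between the limbs at this time, the median was 0.24, and Cyc1 stood at 0.12 and Uqcrc1 at 0.28. Of the 20 chondrocyte markers 16 were lower in DMM (median -0.72, none called). The part of muscle and chondrocyte RNA in these differences was not tested otherwise.

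**Figure D2:**
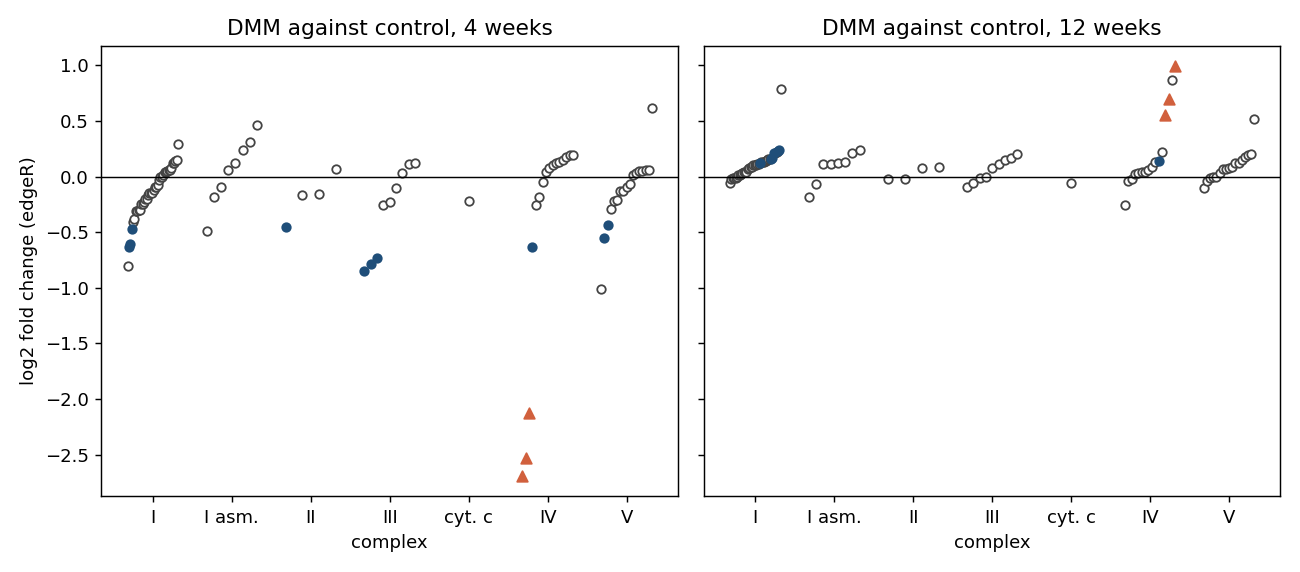
Log2 fold change (edgeR) of DMM against control by complex at 4 weeks (left) and 12 weeks (right). Each point is a member, filled where the 3 DMM and 3 control libraries do not overlap, and orange triangles are the muscle isoforms. No point passes the adjusted threshold. The triangles lie between -2.69 and -2.13 at 4 weeks and between 0.55 and 0.99 at 12 weeks.

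At the other end were Atp5g2 at 0.62 (SE 0.56), which has 0.245 CPM and no window of its own, and the assembly factor Ndufaf2 at 0.46 (SE 0.28, 7.86 CPM). Ndufaf4, another assembly factor of complex I, was at 28.2, 19.2 and 20.8 CPM in control and 21.2, 28.4 and 35.2 CPM in DMM at 4 weeks (log2 fold change 0.31, SE 0.24, adjusted p = 0.537 in edgeR). Ndufs5 followed at 0.29 (SE 0.24, 82.8% of windows shared) and Ndufaf7 at 0.24 (SE 0.18), and the groups overlapped in all 5 genes. Of the most abundant members by CPM, Atp5a1 and Uqcrc1 did not overlap (above), whereas Atp5b and Sdha did. Atp5b was at 1131, 881 and 1025 CPM in control and 789, 898 and 795 CPM in DMM (log2 fold change -0.29, SE 0.24), and Sdha at 437, 333 and 330 CPM in control and 311, 338 and 331 CPM in DMM (log2 fold change -0.17, SE 0.21). The log2 fold changes of Sdhb and Sdhd were -0.16 (SE 0.26) and 0.07 (SE 0.23), and those of Cycs -0.22 (SE 0.34), Cox4i1 -0.26 (SE 0.21), Cox6b1 0.08 (SE 0.24), Uqcr10 -0.10 (SE 0.24), Ndufa3 -0.15 (SE 0.24) and Ndufa4 -0.17 (SE 0.26). The intervals of these differences are wide, with standard errors of 0.21 to 0.34, and none was called.

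The largest differences at 4 weeks were in the muscle isoforms, which replace the common subunit of complex IV in striated muscle. Cox6a2 was at 191, 45.6 and 38.6 CPM in control and 22, 18.5 and 6.86 CPM in DMM replicates, a log2 fold change of -2.53 (SE 0.69, adjusted p = 0.255 in edgeR and 0.00244 in DESeq2). Cox8b was at 93.2, 23.3 and 17.0 CPM in control and 8.97, 7.47 and 4.12 CPM in DMM, a log2 fold change of -2.69 (SE 0.65, adjusted p = 0.252 in edgeR and 0.000539 in DESeq2). Cox7a1 was at 61.9, 15.0 and 11.9 CPM in control and 8.59, 7.50 and 4.05 CPM in DMM, a log2 fold change of -2.13 (SE 0.63, adjusted p = 0.273 in edgeR and 0.0118 in DESeq2). Every DMM library was below every control library for all 3 isoforms, as it was for all 30 skeletal muscle markers, whose median log2 fold change was -2.68 and of which edgeR called 1, Myh1. Without control replicate 1 the log2 fold changes were smaller, -1.55 for Cox8b, -1.42 for Cox6a2 and -1.0 for Cox7a1. With the skeletal muscle covariate, which did not overlap between the limbs, they were 0.40 for Cox8b, 0.73 for Cox6a2 and 0.91 for Cox7a1. With the replicate number as a block Cox8b and Cox6a2 were called in edgeR (adjusted p = 0.0187 and 0.0207) and Cox7a1 was not (adjusted p = 0.0673), in a fit that called 1.67% of all transcripts. At 12 weeks the isoforms varied more between libraries than between limbs. Cox6a2 was at 3.63, 23.2 and 55.3 CPM in control and 99.4, 8.38 and 9.58 CPM in DMM, with its highest values in control replicate 3 and DMM replicate 1, the 2 libraries of that week with the most muscle marker counts. Its log2 fold change was 0.55 (SE 1.47), and those of Cox8b and Cox7a1 were 0.70 (SE 1.66) and 0.99 (SE 1.29). The direction rested on single libraries: the 3 isoforms were at -1.62 to -0.81 without DMM replicate 1 and at 1.56 to 2.03 without control replicate 3. With the replicate number as a block they were at -0.43 to 0.27.

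The common counterparts stayed within a narrow range. Cox6a1 ran from 127 to 167 CPM over all 12 libraries, Cox7a2 from 71.9 to 116 CPM and Cox8a from 61.4 to 87.6 CPM, and their log2 fold changes at 4 weeks were 0.18 (SE 0.19), 0.13 (SE 0.22) and 0.19 (SE 0.20). With an offset for GC content, described below, these were 0.60 (SE 0.25), 0.09 (SE 0.21) and 0.63 (SE 0.29). Between the weeks in DMM cartilage the offset gave -0.68, -0.10 and -0.59, and none of these was called. Per length, Cox6a2 made up 53.8%, 22.7% and 17.3% of Cox6a1 plus Cox6a2 in the control libraries of 4 weeks and 11.6%, 8.36% and 3.24% in the DMM libraries (difference of means -23.5 percentage points, exact permutation test, two-sided, p = 0.1, the smallest that 3 libraries against 3 allow). At 12 weeks the shares were 1.96%, 10.5% and 24.1% in control and 39.0%, 4.21% and 4.59% in DMM (difference 3.75 points, exact permutation test, two-sided, p = 0.8). Cox8b made up between 0.992% and 69.5% of Cox8a plus Cox8b, and Cox7a1 between 4.16% and 54.0% of its pair. Across the libraries the shares thus ranged widely within each group of 3, and the lowest of each was in control replicate 1 of 12 weeks, the library with the fewest muscle marker counts.

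**Figure D3:**
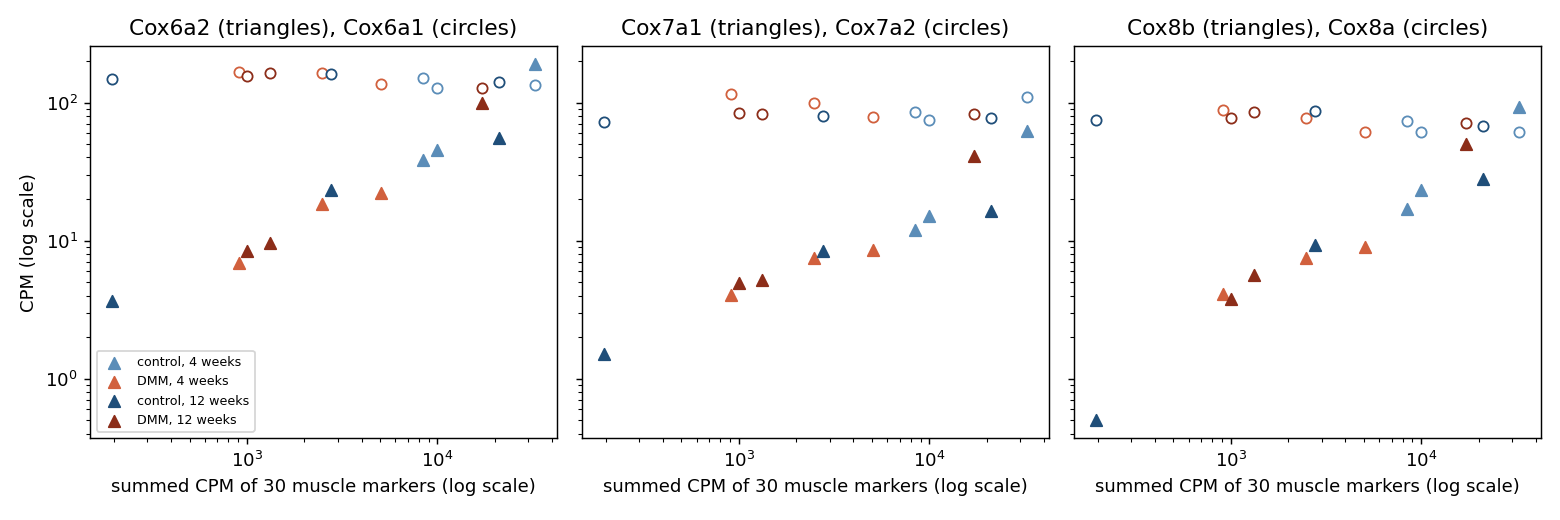
CPM (log scale) of each muscle isoform (triangles) and its common counterpart (open circles) against the summed CPM of 30 skeletal muscle markers (log scale). Each library gives 1 triangle and 1 circle per panel, coloured by group. The triangles are higher where the markers are higher, from 0.498 to 93.2 CPM for Cox8b, while the circles of Cox8a stay between 61.4 and 87.6 CPM.

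At 12 weeks after DMM no member was called in edgeR's test, which called 0.00476% of the 21010 transcripts, and none of the 93 had an unadjusted p under 0.05, against 15.9% of all genes. DESeq2 called no member and 4.02% of all transcripts. Without the muscle isoforms DMM was higher in 70 of 90 members and lower in 20, but the differences were small (median log2 fold change 0.09, all genes 0.02). Complex I had 33 of 38 subunits higher (median 0.10), complex III 6 of 9 (0.08), complex IV 10 of 13 (0.04), complex V 13 of 17 (0.08), complex II 2 of 4 (0.03) and the assembly factors 6 of 8 (0.12). All DMM libraries were above all control libraries in 7 members, 6 of them of complex I and Cox7a2, and in none below, beside 9.91% of all genes for higher and 8.43% for lower. Ndufa11, a membrane subunit of complex I, was at 51.7, 59.0 and 53.3 CPM in control and 67, 62.5 and 63.0 CPM in DMM (log2 fold change 0.24, SE 0.11, adjusted p = 0.329). The lowest log2 fold changes among members of at least 10 CPM were close to 0: Atp5b at -0.10 (SE 0.18), Uqcrc1 at -0.09 (SE 0.20) and Ndufaf4 at -0.07 (SE 0.14). The median of the members was -0.03 without DMM replicate 1, the DMM library with the most muscle marker counts, and -0.01 without control replicate 1. Neither the direction nor the size of the median therefore held without these libraries.

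Apart from the muscle isoforms, the highest log2 fold changes at 12 weeks were in 2 alternative subunits that are known to be induced at low oxygen in other tissues. Cox4i2, the second isoform of subunit 4 of complex IV, was at 15.5, 31.5 and 10.5 CPM in control and 32.1, 44.2 and 28.7 CPM in DMM, a log2 fold change of 0.87 (SE 0.38, adjusted p = 0.314 in edgeR). Control replicate 2 reached the level of the DMM libraries, and without it the change was called (1.39, adjusted p = 0.0351) in a fit that called 4.04% of all transcripts, whereas without each other library the adjusted p in edgeR was 0.262 to 0.725. With the replicate number as a block it was called (1.0, SE 0.20, adjusted p = 0.0455 in edgeR), in a fit that called 3.49% of all transcripts. The numbers are not known to mark pairs. At 4 weeks Cox4i2 was at 45.8, 30.1 and 18.9 CPM in control and 31.9, 30.8 and 28.9 CPM in DMM (log2 fold change -0.05, SE 0.29). Ndufa4l2, a paralogue of Ndufa4 that limits complex I activity under hypoxia, was at 113, 329 and 87.1 CPM in control and 260, 393 and 258 CPM in DMM at 12 weeks (log2 fold change 0.79, SE 0.49, adjusted p = 0.439 in edgeR). Again only control replicate 2 overlapped the DMM libraries, and without it the log2 fold change was 1.57 (adjusted p = 0.0334), against adjusted p-values of 0.418 to 0.819 without each other library. Leaving out control replicate 3 instead gave log2 fold changes of 0.56 for Cox4i2 and 0.45 for Ndufa4l2. With the replicate number as a block Ndufa4l2 was not called (1.02, SE 0.27, adjusted p = 0.104 in edgeR). At 4 weeks it was at 372, 237 and 118 CPM in control and 162, 132 and 121 CPM in DMM (log2 fold change -0.80, SE 0.38, adjusted p = 0.381), and without control replicate 1 the log2 fold change was -0.36.

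Per length Ndufa4l2 was among the most abundant members, at 598 TPM over all libraries, close to Ndufa4. It made up 51.0%, 54.1% and 31.9% of the sum of both genes in the control and 46.1%, 33.6% and 30.7% in the DMM libraries of 4 weeks. At 12 weeks the share was 37.4%, 60.5% and 25.1% in control and 49.2%, 68.6% and 55.5% in DMM libraries (difference 16.8 percentage points, exact permutation test, two-sided, p = 0.3). In DMM cartilage it was 21 points higher at 12 than at 4 weeks (exact permutation test, two-sided, p = 0.1, the smallest possible). The log2 fold change of Ndufa4l2 between these weeks was 1.13 (SE 0.48, adjusted p = 0.106 in edgeR), and 0.55 with an offset for GC content. Cox4i2 made up 4.72% to 18.9% of Cox4i1 plus Cox4i2 over the 12 libraries, and the common Cox4i1 stayed between 184 and 282 CPM. Control replicate 2 of 12 weeks also had the highest summed level of the 20 chondrocyte markers among the controls of that week, 46766 CPM against 26667 and 16169 CPM. The DMM libraries of that week were at 30985, 50285 and 38802 CPM. All 20 chondrocyte markers were higher in DMM (median log2 fold change 0.50), and all 10 neutrophil and marrow markers (-0.52) and all 8 erythroid markers (-0.32) were lower, none of them called. The erythroid markers Hba-a1 and Hba-a2 had the same lowest and highest values in every group, so here and below the 8 are not all separate readings. With the skeletal muscle covariate the log2 fold changes at 12 weeks were 0.89 for Cox4i2 (adjusted p = 0.361 in edgeR) and 0.79 for Ndufa4l2 (adjusted p = 0.455 in edgeR). The part of other cell content in the values of these 2 genes was not tested.

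Between 4 and 12 weeks, when the mice also grew older, the members of control cartilage were mostly lower at the later time. Of 90 members, 77 were lower at 12 weeks, with a median log2 fold change of -0.25 against -0.01 over all genes, but none was called in edgeR, which called 5.69% of the 21618 transcripts. An unadjusted p under 0.05 was found in 5 members, all lower, where 12.1% of all genes were lower at that p. DESeq2 called 1 member, Ndufb4, which has 87.2% of its windows shared, and 13.5% of all transcripts. All 12-week libraries were below all 4-week libraries in 7 members and above in none, against 11% and 15.8% of all genes. The lower median rested on control replicate 1 of 4 weeks, without which it was -0.05. The muscle isoforms had log2 fold changes of -1.83 to -1.74 with standard errors of 1.06 to 1.29 (-0.70 to -0.63 without control replicate 1 of 4 weeks, -3.21 to -2.60 without control replicate 3 of 12 weeks), and all 30 muscle markers were lower at 12 weeks (median -1.33, 4 called). Other cell type markers moved in the same comparison. All 10 neutrophil and marrow markers were higher at 12 weeks (median log2 fold change 1.06, 1 called), with a summed level of 9097 to 26271 CPM at 4 weeks and 25811 to 43627 CPM at 12 weeks. Of 20 chondrocyte markers 17 were lower (median -0.65, 1 called), all 7 white fat markers were lower (median -0.72, 1 called) and 6 of 8 erythroid markers higher (median 0.10). Their part in the lower levels of the members was not tested.

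In DMM cartilage 4 members were called between the weeks, where 23.6% of all transcripts were called. Cyc1, cytochrome c1, rose from 90.6, 82.6 and 55.6 CPM at 4 weeks to 163, 113 and 141 CPM at 12 weeks, a log2 fold change of 0.87 (SE 0.24, adjusted p = 0.0232 in edgeR). Uqcrc1, a core protein of complex III, rose from 183, 158 and 131 CPM to 340, 223 and 279 CPM (log2 fold change 0.83, SE 0.25, adjusted p = 0.0335). Atp5d, the delta subunit of ATP synthase, rose from 73.1, 76.9 and 61.7 CPM to 132, 95.3 and 109 CPM (log2 fold change 0.67, SE 0.20, adjusted p = 0.0297). In all 3 genes every 12-week library was above every 4-week library. Ndufaf4 fell from 21.2, 28.4 and 35.2 CPM to 19.1, 19.2 and 17.1 CPM (log2 fold change -0.61, SE 0.20, adjusted p = 0.0455), again without overlap. In GRCm38 Cyc1 lies at chr15:76343523-76346260, Uqcrc1 at chr9:108936648-108949641, Atp5d at chr10:80142315-80145818 and Ndufaf4 at chr4:24898083-24905001, all on the plus strand, and the counts cover their annotated exons. In control cartilage the log2 fold changes of these genes were 0.04, 0.14, 0.06 and -0.22, and without control replicate 1 of 4 weeks 0.26, 0.45, 0.27 and -0.06. Cell type markers moved in the same comparison: all 30 muscle markers were higher at 12 weeks (median log2 fold change 1.10, none called), as were 15 of 20 chondrocyte markers (0.52, 4 called) and 9 of 10 neutrophil and marrow markers (0.57, 1 called), and all 7 white fat markers were lower (-0.90, 3 called). The libraries of the weeks overlapped for every muscle marker. Their sum was 17128 CPM in DMM replicate 1 of 12 weeks but 999 and 1319 CPM in replicates 2 and 3, against 5089, 2483 and 910 CPM at 4 weeks. The part of these cell types in the calls was not tested. The share of members called, 4 of 93, was below that of all transcripts, of genes called higher alone (12.9% of all genes) and of genes called lower alone (9.92%). DESeq2 called 9 members and 29.9% of all transcripts.

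**Figure D4:**
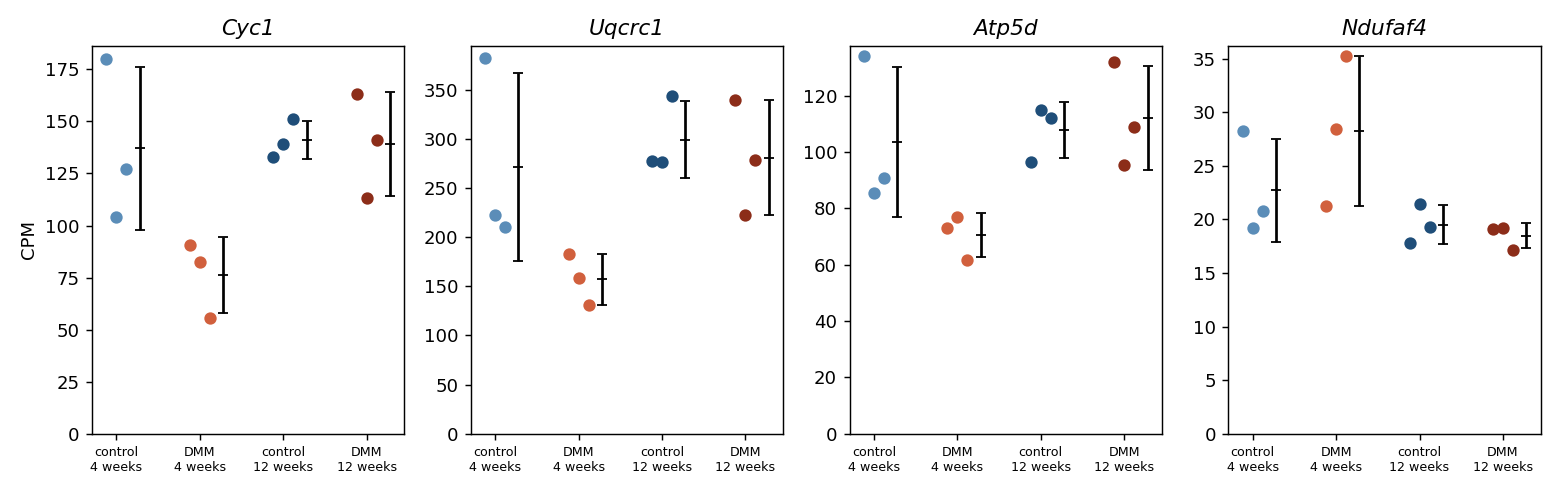
CPM of the 4 members called between 4 and 12 weeks in DMM cartilage. Points are libraries by group, and black bars are the mean and SD of 3 libraries. The DMM libraries of 4 weeks are the lowest group for Cyc1, Uqcrc1 and Atp5d (means of 76.3, 157 and 70.6 CPM) and the highest for Ndufaf4 (28.3 CPM).

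Over the 90 members without the muscle isoforms, 56 were lower and 34 higher at 12 than at 4 weeks in DMM cartilage (median -0.09, all genes 0.02). The libraries did not overlap in 9 members that were higher and 2 that were lower, beside 22.8% and 19% of all genes. Complex III had a median of 0.04, complex IV 0.04, complex V -0.02, complex I -0.11, complex II -0.13 and the assembly factors -0.18. The muscle isoforms had log2 fold changes of 1.31 to 1.54 with standard errors of 1.06 to 1.29, and of -0.81 to -0.41 without DMM replicate 1 of 12 weeks. The calls were not stable to single libraries. None of the 4 was made without DMM replicate 2 or 3 of 4 weeks, where 2202 and 1682 of all transcripts were called. The same held without DMM replicate 1 or 3 of 12 weeks, with 2970 and 2160 transcripts called, against 5109 in the main fit. Of the 4, 3 were made without DMM replicate 2 of 12 weeks (14.2% of all transcripts called), and 10 members were called without DMM replicate 1 of 4 weeks (29.2% of all transcripts called). The difference in the DMM effect between the weeks, tested as an interaction, gave no call among the members and 0% of all 21618 transcripts (4 members had an unadjusted p under 0.05, all higher, beside 7.56% of all genes, and DESeq2 called no member and 0.0613% of all transcripts). For Cyc1 it was 0.83 (SE 0.33, adjusted p = 0.405 in edgeR), and 0.44 with an offset for GC content (SE 0.27, adjusted p = 0.645).

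The GC content of the transcripts moved with these differences. Weighted by counts, the mean GC content of the transcripts was 49.89%, 49.20% and 48.58% in the DMM libraries of 4 weeks and between 50.04% and 50.73% in the other 9. Across all genes the log2 fold change between DMM and control at 4 weeks had a Spearman rho of -0.55 with GC content over 15178 genes, and between 12 and 4 weeks in DMM cartilage a rho of 0.55 over 15572 genes. In 90 members the values were -0.31 and 0.61, as a description over genes that share the same libraries. The 3 members called higher had GC contents of 55.7% (Cyc1), 57.4% (Uqcrc1) and 61.1% (Atp5d), and the member called lower 39.5% (Ndufaf4), while the median member was at 51.2%. With an offset for GC content, chosen after seeing the data, the log2 fold changes were 0.44 for Cyc1 (adjusted p = 0.161 in edgeR), 0.30 for Uqcrc1 (adjusted p = 0.373), 0.01 for Atp5d (adjusted p = 0.969) and -0.06 for Ndufaf4 (adjusted p = 0.865). The only member called with this offset was Ndufa13, a complex I subunit, lower at 12 weeks (log2 fold change -0.79, adjusted p = 0.0487), in a fit that called 9.95% of all transcripts. Between the limbs at 4 weeks the offset gave Cyc1 a log2 fold change of -0.54 and Uqcrc1 one of -0.41. Atp5d was at -0.09 (-0.55 without the offset) and Ndufaf4 at -0.10 (0.31 without the offset), and the median of the members was 0.02.

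**Figure D5:**
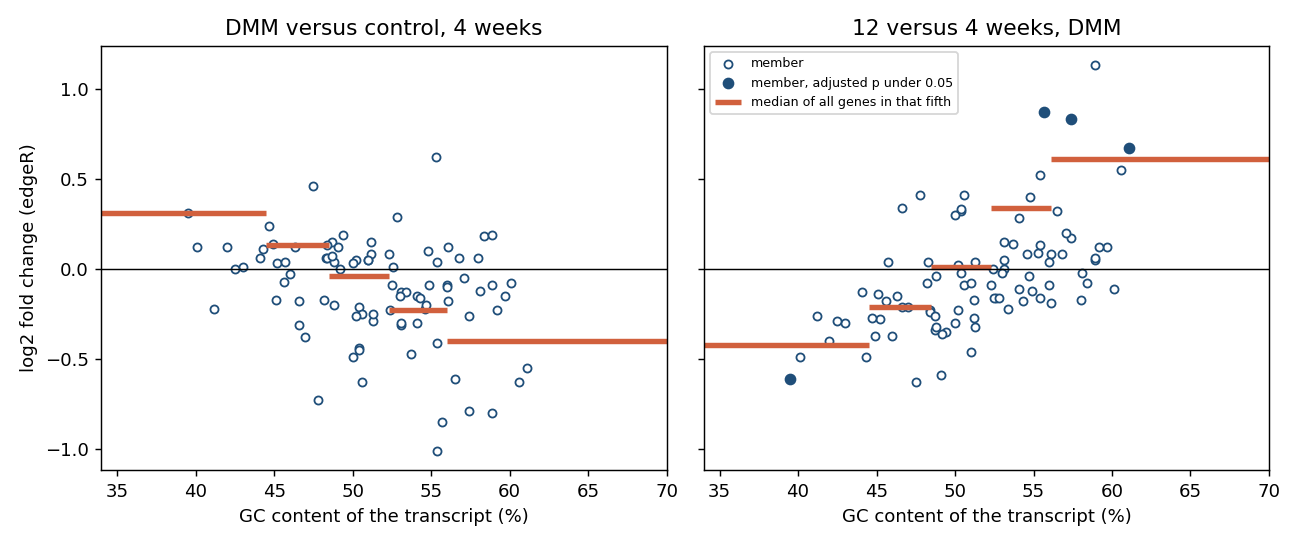
Log2 fold change (edgeR) of each member without the muscle isoforms against the GC content of its transcript (%), for DMM against control at 4 weeks (left) and 12 against 4 weeks in DMM cartilage (right). Filled points passed an adjusted p of 0.05, and orange lines give the median of all genes in each of 5 bins of GC content, set to hold nearly equal numbers of genes. These medians run from 0.31 to -0.40 on the left and from -0.42 to 0.61 on the right.

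Other genes of energy metabolism were read in the same fits. At 4 weeks none of 16 genes of the citric acid cycle and pyruvate dehydrogenase was called (12 lower in DMM, median -0.10), none of 35 assembly and maturation factors (21 lower, -0.04), none of 16 regulators of mitochondrial biogenesis (11 lower, -0.31), none of 13 carriers and membrane proteins (9 lower, -0.06) and none of 78 mitochondrial ribosomal proteins (52 higher and 26 lower, 0.08). Of the cytosolic ribosomal proteins 77 of 87 tested were higher (median 0.30) and none was called. Among glycolysis genes 18 of 19 genes were lower in DMM (median -0.55), 11 of them at an unadjusted p under 0.05 (7.44% of all genes were lower at that p) and none after adjustment. All 30 muscle markers (median -2.68) and 16 of 20 chondrocyte markers (-0.72) were lower in the same comparison, and neither their part nor the difference between the lists was tested. The smallest adjusted p in that list was 0.252, of Pfkm, the muscle form of phosphofructokinase. At 12 weeks no gene of these 7 lists was called, and the medians were -0.03, 0.03, -0.06, -0.03, 0.01, -0.05 and, for glycolysis, 0.20 with 15 of 19 genes higher. Between the weeks in DMM cartilage 6 of 19 glycolysis genes were called, all higher (median 0.38), as were 4 of 16 biogenesis genes (0.34), where 12.9% of all genes were called higher and 23.6% of all transcripts in either direction. The muscle and chondrocyte markers given above moved in this comparison too, with the muscle sum highest in DMM replicate 1 of 12 weeks. The glycolysis list includes the muscle form Pfkm, and the part of these cell types was not tested. Over all genes, log2 fold changes also moved with GC content, between the limbs at 4 weeks (rho -0.55) and between the weeks in DMM (rho 0.55). These lists were not read with the GC offset, so the part of GC content was not tested. In the same comparison 1 citric acid cycle gene, 3 assembly factors (1 higher and 2 lower), 1 carrier, 7 mitochondrial and 5 cytosolic ribosomal protein genes were called.

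DNA methylation at the starts of the members was read from oxidative bisulfite data, in which only 5-methylcytosine (5mC) is read as C. Within 500 bases of the start, 85 members were measured in each week, over 3 or more CpG cytosines that each reached 10 reads in all libraries. The mean 5mC level of 84 of them was between 0.0882% and 4.65% at 4 weeks and between 0.105% and 4.41% at 12 weeks. The median member was at 0.651% and 0.338%, beside 0.748% and 0.407% over all genes measured. The exception was Cox6a2, at 77.2%, 70.8% and 75.8% in control and 77.4%, 72.6% and 69.0% in DMM libraries at 4 weeks over 10 cytosines. At 12 weeks it was at 75.3%, 74.5% and 81.5% in control and 71.4%, 73.7% and 72.9% in DMM over 6 cytosines (difference -4.47 percentage points, exact permutation test, two-sided, p = 0.1, the smallest possible). All these cytosines lay inside the gene, 98 to 418 bases after the start, so the bases before it were not measured. A level over 50% was found in 3.89% of all genes at 4 weeks and 3.97% at 12 weeks. The starts of Cox7a1 and Cox8b were not covered.

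Differences between DMM and control in promoter 5mC were small. At 4 weeks the groups did not overlap in 4 members that were higher and 7 that were lower in DMM, beside 2.91% and 6.37% of all genes, and the size was at most 0.52 percentage points (Atp5g1). At 12 weeks 1 member was higher and 7 were lower, beside 4.65% and 9.94% of all genes. Cox4i2 was next in size to Cox6a2, at 6.69%, 4.77% and 5.24% in control and 2.94%, 2.85% and 3.96% in DMM over 8 cytosines with a median coverage of 46 reads (difference -2.32 points, exact permutation test, two-sided, p = 0.1). At 4 weeks it was at 4.09%, 4.69% and 5.97% in control and 4.02%, 3.88% and 5.24% in DMM (difference -0.53 points, exact permutation test, two-sided, p = 0.5). Ndufs7 differed by 1.28 points at 12 weeks over only 3 cytosines and Ndufa13 by -1.09 points at 4 weeks, both with overlapping groups, and every other member with a measured start by less than 1 point in either week. The starts of the 4 members called between the weeks were almost unmethylated in both limbs. Group means were 0.369% to 0.676% for Cyc1, 0.295% to 0.844% for Uqcrc1, 0.349% to 0.820% for Atp5d and 0.372% to 0.795% for Ndufaf4.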

How the data were processed

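RNA was measured in 12 libraries of pooled knee cartilage and 5mC in other mice. The authors deposited raw counts per RefSeq transcript (STAR and featureCounts, with CASAVA 2.17 for base calls, per the submitters' notes) and, for oxidative bisulfite libraries, the percent methylation and coverage of each CpG from Bismark. The labels describe poly(A) TruSeq libraries whereas the methods describe SMART-Seq v4 and Nextera XT with 50-base single reads. Multi-mapping and strand settings are not given in the sources used here. Bisulfite-only files were not used. Members and gene lists were chosen with earlier results of these data known.

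Counts were tested over all transcripts with edgeR 4.0.16 (quasi-likelihood, TMM, filterByExpr, Benjamini-Hochberg adjustment, R 4.3.3), separately for each limb comparison at each week and over all 12 libraries for weeks and their interaction. The SE of an edgeR log2 fold change was calculated back from the test, as its absolute value over the square root of the F statistic. Alternatives were DESeq2 1.42.0, other filters, the replicate number as a block, a muscle covariate, a GC offset and leaving out each library. Scripts were tested on simulated data. Named members were chosen by rule: the called members, the 2 highest levels per complex, the 3 highest and 3 lowest limb differences at a mean of at least 10 CPM, complex II, Cycs and the isoform pairs. Others, such as Atp5g1, Atp5g2 and Ndufaf2, were named after their values were seen. Promoter 5mC averaged at least 3 cytosines with at least 10 reads in each library, within 500 bases of the start, and was compared by exact permutation (scipy 1.17.1). Depth was 27706547 to 62737656 counts per RNA library. The values of 1 member are not reported here.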

Additional observations from a re-analysis of the deposited data

Results flagged for a closer look

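The start of Ndufa12, a complex I subunit, had opposite differences in 5mC at the 2 times, with no overlap of the 3 DMM and 3 control libraries at either. At 4 weeks the mean was 0.423% in control and 0.587% in DMM (difference 0.16 percentage points), and at 12 weeks 0.433% in control and 0.225% in DMM (difference -0.21 points), over 37 cytosines. Such a lack of overlap was found in 2.91% of all genes measured for higher at 4 weeks and in 9.94% for lower at 12 weeks. These levels are near the floor of the measure: the median over all genes was 0.748% at 4 weeks and 0.407% at 12 weeks. Whether such small differences lie beyond the error of the method was not tested, nor was the difference between the weeks.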

How the results depend on the processing

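At 4 weeks the count of called members, 0 in edgeR, was 3 in DESeq2 and 2 with the replicate number as a block (calls over all transcripts 747 and 354, against 16), and the median log2 fold change of the members was 0.24 with the muscle covariate and -0.21 to 0.15 when each library was left out. At 12 weeks the count of 0 became 1 with the replicate block (Cox4i2, with 734 calls over all transcripts against 1) and 0 to 2 without each library (2 without control replicate 2, with 860 calls over all transcripts), and the median ranged from -0.03 to 0.16. Between the weeks the count in control cartilage, 0, became 1 in DESeq2 and 0 to 5 without each library (5 without control replicate 3 of 4 weeks, with 4685 calls over all transcripts against 1229, median range -0.38 to -0.05), and in DMM cartilage the count of 4 became 9 in DESeq2, 1 with the GC offset and 0 to 10 without each library (median range -0.21 to -0.04), where calls over all transcripts went from 5109 to 6593, 2151 and 1682 to 6396. The interaction had 0 calls without any library. The median difference in promoter 5mC was -0.07 points at 4 weeks, -0.09 with at least 20 reads and -0.08 to -0.03 without each library, and -0.01 points at 12 weeks, with a range of -0.04 to 0.0. The causes were not tested. Samples with the same number did not all deviate together (r of 0.37, -0.359 and 0.084 at 4 weeks and -0.585, 0.285 and -0.268 at 12 weeks), so the numbers were not taken as pairs. Whether they mark pools of the same mice is not stated. The medians of both limb comparisons thus changed sign under some of these alternatives. Uqcrb, called lower between the weeks in DMM by DESeq2 (-0.52), was at 0.03 with the GC offset. Of the 14 members under 10 CPM, Cox8c, Cox7b2 and Atp5g2 had at most 1, 3 and 21 counts in a library, and the other 11 reached 100 counts or more.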
